A study of Mus musculus with 1753 samples.

Results

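The platelet-derived growth factor (PDGF) system of mouse hindlimb muscle was followed through 7 genes, which were the receptors Pdgfra and Pdgfrb, the ligands Pdgfa, Pdgfb, Pdgfc and Pdgfd, and the receptor-like gene Pdgfrl. The genes were taken by name and not by their level, and they are 7 of the 46517 genes in the count table. All of them had counts, from Pdgfb in 113 cells to Pdgfrb in 1552 cells of 1753.

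PDGFs are secreted dimers that bind to receptor tyrosine kinases on neighbouring cells. The α receptor is bound by the A, B and C chains and the β receptor mainly by the B and D chains, and the C and D chains become active only after proteases have removed a masking domain. In tissues, PDGF-B from endothelium is known for drawing pericytes to vessels through the β receptor, and the α receptor is a widely used mark of muscle fibroblasts.

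Single cells had been sorted from dissociated hindlimb muscle and sequenced with Smart-seq2, which reads full-length cDNA without molecular identifiers. Each of the 1753 samples was 1 cell, with labels for its cluster (1 to 10), mouse strain and plate. Endomysial fibroblasts (1116 cells of clusters 1, 3, 5, 6 and 8) are named for the sheath of single muscle fibres. The authors anticipate that these clusters also hold fibroadipogenic progenitors and perivascular fibroblasts, and leave this to further work. Perimysial fibroblasts (328 cells of clusters 2 and 9) belong to the sheath of fibre bundles. Paramysial fibroblasts (60 cells of cluster 4) belong to the zone between both sheaths. Cluster 7 (187 cells) held the mural cells of vessel walls, that is smooth muscle and pericytes. Cluster 10 (62 cells) has no class name, and the authors define it by Cspg4, Pdgfra and Ngfr.

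All mice were adult males of 10 to 20 weeks on a C57Bl6/J background. C57BL6 mice carried no reporter, and their cells were taken by antibodies against the PDGF receptors. Acta2GFP, Cspg4dsRED and PdgfrbGFP mice carried transgenes in which regulatory DNA of the named gene drives a fluorescent protein, and Acta2GFP tissue was also treated with elastase. The label PdgfraGFP - PdgfrbGFP pool, here called the pool, joins the Pdgfrb transgene line with a line that has a nuclear GFP knocked into Pdgfra itself. In every strain, cells positive for the endothelial protein CD31 were gated out, and cells were taken by PDGF receptor antibodies or by reporters. Receptor levels are conditional on such a sort where it used the receptors. The authors state that cells without Pdgfra and Pdgfrb were dropped, but 74 cells of the table have no count of either. The strain served as the replicate, and the n of each value is a number of strains. The labels name no animal, and strain, reporter and sort gate cannot be told apart. It is not known whether the pool and PdgfrbGFP came from separate mice, so p-values measure only the spread between these samples.

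Depth ranged from 46097 to 1055869 counts per cell. Cspg4dsRED stood apart, with the lowest median depth (121646 counts, against 179700 to 367563 in the others) and a median of 2283 genes. The summed mural markers (Acta2, Myh11 and 6 others) stood at 15720 to 26032 CPM (counts scaled to a fixed library total) in cluster 7 and at or under 1249 in every other class, so cluster 7 fitted its name. The classes had been made by the authors from these same counts, PDGF genes included, so a difference between them describes the clustering and is not independent evidence for it.

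Pdgfra (ENSMUSG00000029231) lies on chromosome 5 of GRCm38, from 75152292 to 75198215 on the plus strand. Pdgfa (ENSMUSG00000025856) lies on the minus strand of the same chromosome, from 138976014 to 138997370. Across the clusters these genes moved in opposite directions, as described next, and their promoters are printed for that reason, from 250 bases before to 50 after the RefSeq start (GRCm38.p6, gene strand, 5′ to 3′). The Pdgfra window is chr5:75152001-75152300 and the Pdgfa window chr5:138994895-138995194. Capitals mark GC boxes (GGGCGG or its complement CCGCCC), the binding motif of SP1-type factors.
Pdgfra: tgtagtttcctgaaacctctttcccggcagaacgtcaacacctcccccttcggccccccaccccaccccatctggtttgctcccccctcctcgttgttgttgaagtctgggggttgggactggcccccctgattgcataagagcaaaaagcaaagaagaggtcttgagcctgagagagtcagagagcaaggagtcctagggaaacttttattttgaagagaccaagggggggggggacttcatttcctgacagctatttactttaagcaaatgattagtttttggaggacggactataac
Pdgfa: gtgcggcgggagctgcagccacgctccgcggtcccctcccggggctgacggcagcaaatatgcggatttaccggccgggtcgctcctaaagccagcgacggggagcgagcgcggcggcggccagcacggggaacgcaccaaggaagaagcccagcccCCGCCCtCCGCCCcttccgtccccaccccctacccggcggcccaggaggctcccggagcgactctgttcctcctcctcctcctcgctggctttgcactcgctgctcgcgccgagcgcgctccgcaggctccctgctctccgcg
The Pdgfra window held 0 GC boxes and 51.0% G and C, and the Pdgfa window 2 boxes and 73.3%. Over the 32851 promoters of the table, 35.7% held a box on either strand, and the median was 52.7% G and C. The RefSeq start of Pdgfra lay 41 bases from the start of the GENCODE gene, and that of Pdgfa 2426 bases from it. The table holds a further Pdgfa window, chr5:138994232-138994531, with 1 box and 67.0% G and C. A match is a description of letters and not of a bound site.

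Pdgfra divided the fibroblasts. Endomysial cells held 682 CPM in Acta2GFP, 1042 in C57BL6, 340 in Cspg4dsRED, 588 in the pool and 809 in PdgfrbGFP. Perimysial cells held 18.5, 37.7, 1.92, 44.7 and 31.9 CPM in the same order, and mural cells 6.36, 4.16, 0.661, 12.05 and 9.46. The ranges of endomysial cells and of both other classes did not overlap. Cluster 10 reached 260 CPM in Cspg4dsRED, 612 in the pool and 1590 in PdgfrbGFP, from below to above the endomysial range. Paramysial cells held 153 CPM in Acta2GFP (6 cells), 213 in the pool (46 cells), 863 in C57BL6 (3 cells) and 733 in PdgfrbGFP (4 cells). Both high values thus rest on very few cells. By mean level the clusters ranked 6, 3, 10, 8, 5, 4, 1, 2, 9 and 7. Of the 9 neighbouring pairs in that order, 8 overlapped within 1 SD, and the exception was the step from cluster 1 (485 ± 127 CPM, SD, n = 4) to cluster 2 (28.6 ± 21.8, n = 5).

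Pdgfrb (ENSMUSG00000024620, chromosome 18) had no such step. Mural cells held 406 CPM in Acta2GFP, 970 in C57BL6, 213 in Cspg4dsRED, 1352 in the pool and 968 in PdgfrbGFP. Endomysial cells held 409, 246, 308, 333 and 614 CPM in the same order, and perimysial cells 163, 306, 200, 467 and 615. The ranges of these classes overlapped throughout. The C57BL6 mural value joins 5 cells of 1 plate at 1462 CPM and 4 cells of another at 66.8 CPM, and that of the pool joins plates at 2029 and 920 CPM. Mural cells had the highest mean (782 ± 464, n = 5), followed by paramysial cells (651 ± 479, n = 4), and all 9 neighbouring pairs of clusters overlapped within 1 SD. The paramysial mean joins 1335 CPM in 4 cells of PdgfrbGFP and 386 CPM in 46 cells of the pool. Cluster 10 was lowest, at 92.6, 181 and 198 CPM in its 3 strains.

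**Figure D1:**
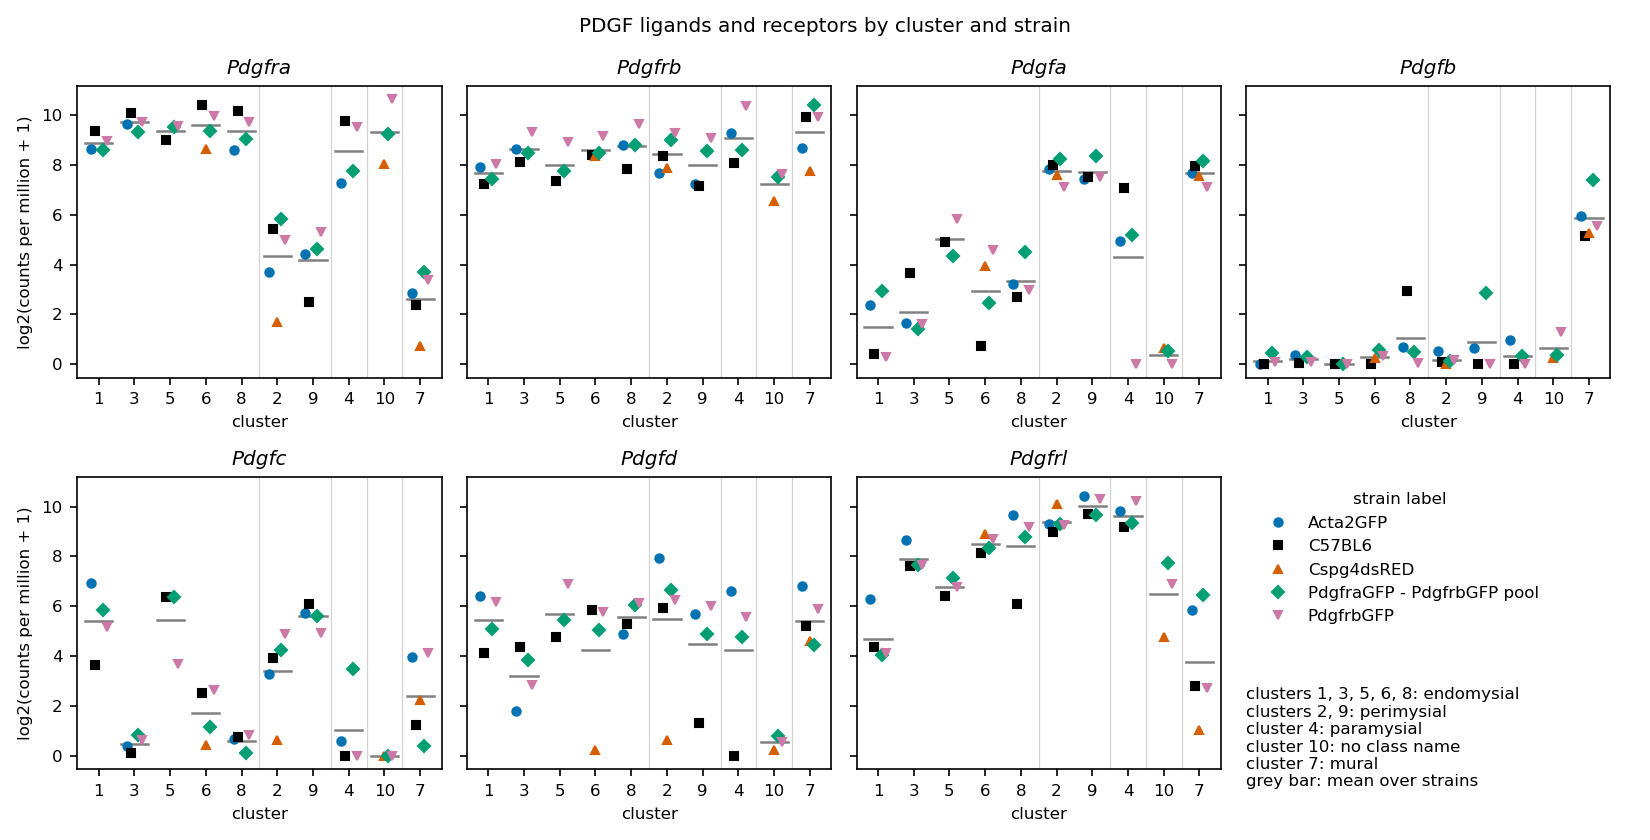
Each panel plots 1 gene as log2(CPM + 1) for the 10 clusters, with 1 point per strain with 3 or more cells and a grey bar at the mean over strains. Pdgfra drops at clusters 2, 9 and 7, where Pdgfa is high, while the Pdgfrb levels of neighbouring clusters overlap and Pdgfb is high in cluster 7.

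Levels of both receptors were set against each other per kilobase of exon. Pdgfra made up 69.0 ± 11% of the summed receptor level in cluster 10 (n = 3) and 49.2 ± 12.4% in endomysial cells (n = 5). It made up 30.5 ± 22.9% in paramysial cells (n = 4), 4.08 ± 2.41% in perimysial cells and 0.454 ± 0.271% in mural cells (n = 5 each). The endomysial range over strains (37.6 to 69.9%) lay apart from the last-named classes, and the perimysial (0.523 to 6.32%) and mural (0.169 to 0.850%) ranges overlapped at their ends. By this balance, the mean of perimysial fibroblasts lay closer to that of mural cells than to that of endomysial fibroblasts. Low Pdgfra was among the authors' marks of perimysial cells, and they describe it as missing from mural cells. This nearness thus restates those descriptions and supports nothing.

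Differences between classes were tested on counts summed per class and strain, with edgeR's quasi-likelihood test, the strain as a block and Benjamini-Hochberg adjustment over all genes tested. A gene was called at an adjusted p under 0.05. Between mural cells and all fibroblasts, 4 of the 7 genes were called, where 15.4% of the 13880 genes tested were (6.15% higher and 9.27% lower in mural cells). Pdgfra was lower in mural cells by a fitted log2 fold change of -6.46 and Pdgfrl of -4.94, and Pdgfa (2.31) and Pdgfb (7.60) were higher. Pdgfb, near 0 in fibroblasts, passed the filter on low counts through the mural sums, so its call was fixed by that choice and supports nothing. For Pdgfrb the within-strain differences ran from 0.05 to 1.96 and it was not called. The median over all genes of this fit was -0.46, and without the strain block it was 0.02. The differences of Pdgfra, Pdgfrl and Pdgfa exceed that shift, and their calls held in the 11 alternatives run on this comparison. These alternatives are not all distinct. Asking for 10 or more cells per sum and leaving out C57BL6 gave the same fit, since C57BL6 had 9 mural cells. Pdgfra lay near the floor in mural cells, at 0.661 to 12.05 CPM, and the authors describe it as missing from them. The mural call of Pdgfra thus restates that description and supports nothing.

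Between perimysial and endomysial cells, 3 of the 6 genes tested were called, where 5.57% of the 14121 genes tested were (2.32% higher and 3.26% lower in perimysial cells). Pdgfra was lower (-4.87, adjusted p = 0.00101), and Pdgfa (5.00, adjusted p = 0.00062) and Pdgfrl (1.63, adjusted p = 0.000688) were higher, each in 5 of 5 strains. Pdgfrb showed no clear direction, with a log2 fold change of -0.13 and a within-strain difference of -0.15 ± 0.75. Pdgfb did not pass the filter on low counts. Both comparisons rest in part on the same cells, since endomysial cells are most of the fibroblasts. As low Pdgfra was among the authors' marks of perimysial cells, the perimysial call of Pdgfra restates that name and supports nothing.

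Paramysial cells were tested against endomysial cells in 4 strains, and 0 of the 6 genes tested were called by edgeR, where 0.0963% of 14533 genes were (0.0757% higher and 0.0206% lower). At an unadjusted p under 0.05 the count over all genes was 981, and DESeq2 called 796. Pdgfra was lower in 4 of 4 strains (-0.97, adjusted p = 0.645), by differences from -2.27 to -0.06. This sits on the all-gene median of -0.86, which was -0.18 without the block and 0.19 with equal cell numbers. Cluster 10 was tested in 3 strains, and 0 of the 4 genes tested were called, where 0.442% of 12455 genes were (0.265% higher and 0.177% lower, 1113 at an unadjusted p under 0.05, and 993 by DESeq2). Its Pdgfrb was lower in 3 of 3 strains without overlap (-1.30, adjusted p = 0.248).

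**Figure D2:**
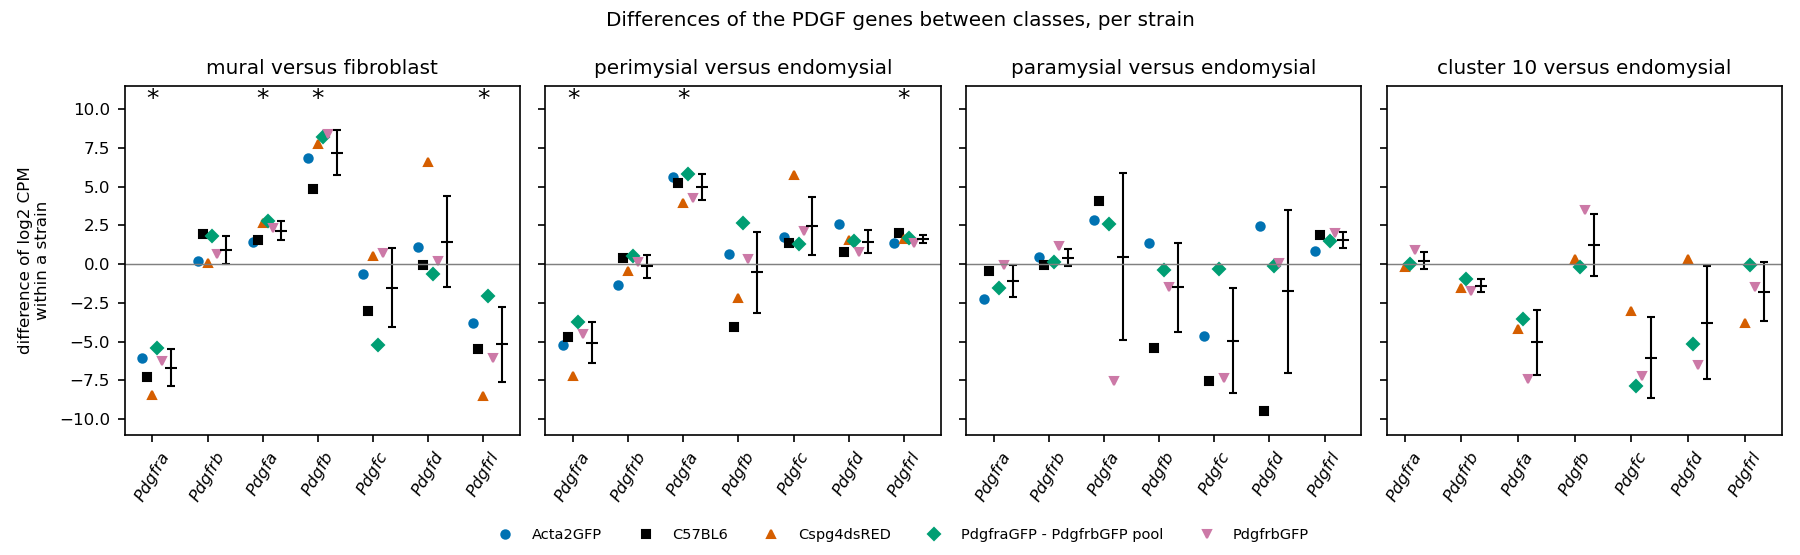
Each point is the difference of log2 CPM between the named classes within 1 strain, with the mean ± SD over strains in black, and an asterisk marks a gene called by edgeR at an adjusted p under 0.05. Pdgfra lies below 0 in all strains of the first and second panel and Pdgfa above 0, while Pdgfc and Pdgfd lie on both sides of 0 in the first panel and above 0 in the second.

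Detection of both receptors in the same cell was then counted. A count of each was found in 1417 of 1753 cells (80.8%, 95% Clopper-Pearson interval 78.9 to 82.7), Pdgfra alone in 127, Pdgfrb alone in 135 and neither in 74. Intervals here cover counting error only, since reads were not counted as molecules. By class, both were found in 91.0% of endomysial cells (89.2 to 92.7), 100% of paramysial cells (94.0 to 100), 70.7% of perimysial cells (65.5 to 75.6), 44.4% of mural cells (37.1 to 51.8) and 41.9% of cluster 10 cells (29.5 to 55.2). The cells without both differed in kind. In mural cells Pdgfrb alone (61 cells) was more frequent than Pdgfra alone (7 cells), and in cluster 10 the order was the other way (4 and 22 cells).

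Depth and threshold changed these shares unequally. Thinned to 50000 counts, both receptors were found in 79.4% of endomysial and 90.0% of paramysial cells, but in 27.8% of perimysial and 20.9% of mural cells. At 20 or more counts per 500000 the shares were 70.7%, 78.3%, 7.32% and 1.07%, the last being 2 of 187 mural cells. Median depth was 276881 counts in endomysial, 257230 in perimysial, 156959 in mural and 595321 in paramysial cells. Where Pdgfra was detected in mural cells (90 of 187), its median was 1.5 counts and its highest value 19 counts, against a median of 168 and a highest value of 2245 in endomysial cells. Most double detection in mural and perimysial cells thus rested on a few Pdgfra reads, a level at which reads from other cells were not told apart from expression.

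**Figure D3:**
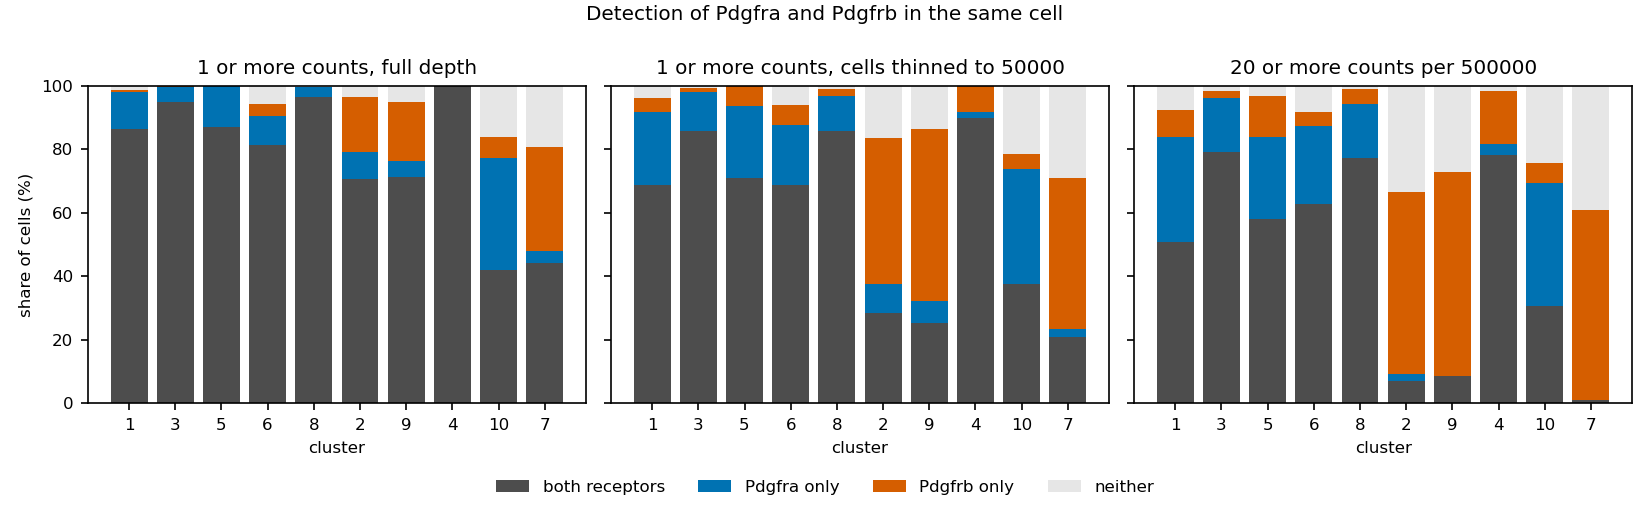
Stacked bars give the percent of cells of each cluster with both receptors, 1 receptor or neither, at 1 or more counts, at 1 or more counts after thinning to 50000, and at 20 or more counts per 500000. The share with both stays high in clusters 1, 3, 5, 6, 8 and 4 in all panels, and in clusters 2, 9 and 7 it shrinks to 8.47% or less in the third.

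The strain moved with these shares as well. Both receptors were found in 94.6% of PdgfrbGFP cells, 91.5% of pool cells, 80.3% of Acta2GFP cells and 78.3% of C57BL6 cells, but in 14.4% of Cspg4dsRED cells, of which 65 of 181 had neither. In Cspg4dsRED only 29.4% of endomysial cells had both, against 86.6 to 98.0% in the other strains. Each strain is 1 sample, so no test of this difference was made. Cspg4dsRED also had the lowest depth, and 74 of its 181 cells were mural and 37 of cluster 10. After thinning, the share with both was 9.44% in Cspg4dsRED against 44.1 to 82.5% in the other strains. The parts of depth and of the mix of classes in the difference were not tested.

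Within the endomysial cells of a strain, the level of 1 receptor said little about the other. Spearman's rho of Pdgfra and Pdgfrb over cells was 0.003 in C57BL6, 0.061 in Acta2GFP, 0.061 in Cspg4dsRED, 0.149 in PdgfrbGFP and 0.177 in the pool. These values are descriptions over 51 to 494 cells that share a library preparation, and in sparse counts they are no finding.

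**Figure D4:**
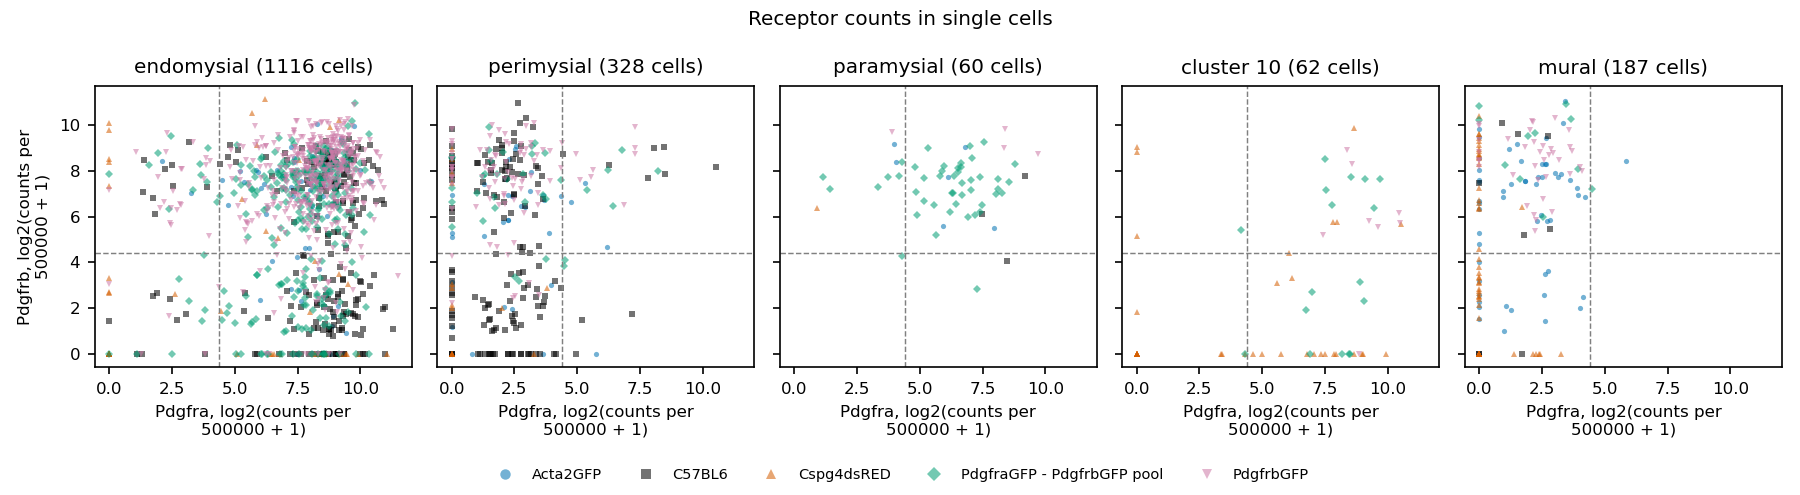
Each point is 1 cell, with Pdgfra on the horizontal and Pdgfrb on the vertical axis, both as log2(counts per 500000 + 1), in panels by class and colours by strain, and dashed lines stand at 20 counts per 500000. Endomysial cells fill the upper right, whereas 2 of 187 mural cells lie right of the vertical line.

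Of the ligands, Pdgfa, which binds the α receptor, ran opposite to Pdgfra. Mural cells held 202 CPM in Acta2GFP, 251 in C57BL6, 187 in Cspg4dsRED, 284 in the pool and 139 in PdgfrbGFP, and perimysial cells 186, 250, 166, 310 and 144. Endomysial cells held 3.76, 6.81, 12.5, 5.52 and 8.13 CPM. The mural and perimysial ranges covered each other nearly in full, and the endomysial range lay far below both. Cluster 10 held 6 counts of Pdgfa in 62 cells, and its fitted difference from endomysial cells (-4.63) was not called (adjusted p = 0.53). Paramysial cells were uneven, with 30.2 CPM in Acta2GFP, 134 in C57BL6, 35.4 in the pool and 0 counts in the 4 cells of PdgfrbGFP.

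Perimysial cells, 18.7% of all cells, held 65.7% of all Pdgfa counts, and mural cells, 10.7% of all, held 22.8%. Pdgfa and its receptor gene seldom stood high in the same cell. At 100 or more counts per 500000, 182 cells had Pdgfa alone, 962 had Pdgfra alone and 9 of 1753 had both (0.513%). Over 40 sums of a cluster within a strain, Pearson's r between log2 CPM of Pdgfa and Pdgfra was -0.76, a description over points that share libraries and strains. An antisense gene, 6330403L08Rik, covers 26.1% of the exon bases of Pdgfa, and as the use of strand in the counting is not stated, reads of both cannot be told apart there.

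Pdgfb (ENSMUSG00000000489, chromosome 15, 79995874 to 80014977, minus strand), the ligand of both receptors, had 88.9% of its counts in mural cells. These held 60.7 CPM in Acta2GFP, 34.6 in C57BL6, 37.3 in Cspg4dsRED, 168 in the pool and 46.0 in PdgfrbGFP. In the other classes no strain exceeded 2.26 CPM, and 1 endomysial cell alone held 157 of the 208 counts of its class. The ranges lay far apart, and the within-strain difference from fibroblasts was 7.20 ± 1.45 on the log2 scale (n = 5). In Cspg4dsRED the fold rests on 1 count in endomysial and 1 in cluster 10 cells, so its size depends on the prior count.

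Within the mural class Pdgfb was detected in a part of the cells. A count was found in 44 of 187 cells (23.5%, 17.6 to 30.3), against 4.21% of endomysial and 3.66% of perimysial cells, and after thinning in 18.7% against 0.808% and 0.612%. At 20 or more counts per 500000 the share was 14.4% (9.74 to 20.3), against 1 cell each of the endomysial and perimysial classes. Of the 44 cells, 38 also had a count of Pdgfrb, and 36 a count of Pdgfa. The 44 cells had a median depth of 162135 counts and the other 143 mural cells one of 146635.

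Endothelial cells and platelets are known sources of PDGF-B, and the authors had dropped cells with a clear endothelial or immune signature. Markers were set beside the values that remained. Over the mural cells with Pdgfb, Pecam1 stood at 7.48 CPM, Cdh5 at 0.689, Cldn5 at 1.48, Vwf at 0.394 and the platelet gene Pf4 at 5.51. Over those without, the levels were 17.8, 0.696, 1.198, 5.18 and 2.51 CPM, and Gp9 had 0 counts in both groups. By these pooled levels Pecam1 and Vwf were lower where Pdgfb was found, and Cdh5 was alike. Cldn5 and Pf4, the latter found in 3 cells of either group, were higher. In detection the groups were alike for Pecam1, with a count in 31 of 44 and 100 of 143 cells. The same held for Vwf, with 3 of 44 and 10 of 143 cells. The source of the Pdgfb reads was not tested. The full list of 7 endothelial markers summed to 287 to 778 CPM in mural cells, 46.9 to 291 in endomysial and 9.89 to 62.0 in perimysial cells. Single genes made up most of the mural and endomysial sums. They were Esam, which mural cells also express, in mural cells (556 CPM) and Tek in endomysial cells (173 CPM). The 4 platelet markers summed to 56.3 CPM in the 9 mural cells of C57BL6 and to 0.135 to 0.707 in those of the other strains. Immune markers likewise summed to 569 CPM in C57BL6 and 0.236 to 39.9 in the others, and muscle fibre markers to 524 and 51.1 to 238. Their part in the mural values of C57BL6 was not tested, and the mural calls of Pdgfrl and Pdgfa held without that strain. Smooth muscle Acta2 was 7809 CPM with and 9201 CPM without Pdgfb, and Rgs5, a gene of pericytes and some smooth muscle, 505 and 860.

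Pdgfc (ENSMUSG00000028019, chromosome 3, 81036416 to 81214040, plus strand), a ligand of the α receptor, varied between the clusters of a class as well as between classes. It was highest in cluster 5 (80.9 CPM in C57BL6, 81.2 in the pool and 11.7 in PdgfrbGFP) and cluster 1 (123 in Acta2GFP, 11.3 in C57BL6, 56.7 in the pool and 35.2 in PdgfrbGFP). The other endomysial clusters 3, 6 and 8 stayed at or under 5.28 CPM in every strain. Perimysial cluster 9 held 29.7 to 67.7 CPM and cluster 2 held 0.559 to 28.9, ranges that all but met. No count of Pdgfc was found in cluster 10, and 0 of 62 cells allows a share of cells with a count of up to 4.84%, by the limit of 3 counts. Only 180 cells of 1753 held a count. Between perimysial and endomysial cells Pdgfc was higher in 5 of 5 strains without overlap (2.24), was not called by edgeR (adjusted p = 0.195), and was called by DESeq2 (2.25) and, with edgeR, without Cspg4dsRED (1.70).

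Pdgfd (ENSMUSG00000032006, chromosome 9, 6168584 to 6378850, plus strand), a ligand of the β receptor, was spread over most clusters. Perimysial cells held 97.0 CPM in Acta2GFP, 54.4 in C57BL6, 0.480 in Cspg4dsRED, 75.0 in the pool and 74.3 in PdgfrbGFP. Mural cells held 113, 36.0, 23.1, 20.9 and 57.7 CPM, and endomysial cells 15.9, 32.6, 0.158, 26.5 and 46.3. These ranges overlapped, and Pdgfd was called in none of the comparisons by edgeR. The fibroblasts of Cspg4dsRED stood far below those of the other strains, with 1 count in 51 endomysial and 1 count in 18 perimysial cells, while its mural cells did not. Cluster 10 was low in all of its 3 strains, at or under 0.734 CPM. Against endomysial cells, perimysial Pdgfd was higher in 5 of 5 strains (1.47, adjusted p = 0.144), and DESeq2 called it (1.48).

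Pdgfrl (ENSMUSG00000031595, chromosome 8, 40926212 to 40990785, plus strand) encodes a secreted protein with similarity to the outer part of the PDGF receptors and without a kinase. Perimysial cells held 1201 CPM in Acta2GFP, 539 in C57BL6, 1149 in Cspg4dsRED, 695 in the pool and 714 in PdgfrbGFP. Endomysial cells held 462, 139, 421, 215 and 310 CPM, and mural cells 56.3, 6.00, 1.04, 85.6 and 5.54. The 3 ranges did not overlap. Paramysial cells, at 903 CPM in Acta2GFP, 588 in C57BL6, 640 in the pool and 1187 in PdgfrbGFP, lay within the perimysial range. Their difference from endomysial cells was positive in 4 of 4 strains (1.68) and not called by edgeR's quasi-likelihood test (adjusted p = 0.0933), and it was called without Acta2GFP (1.82).

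Per kilobase of exon, Pdgfrl was the strongest of the 7 genes in perimysial cells, at 275 ± 94.8 CPM per kb, ahead of Pdgfa (67.8 ± 21.7) and Pdgfrb (63.9 ± 34.6; n = 5 each). The same order of Pdgfrl over both receptors held in paramysial cells, at 265 ± 88.2 against 119 ± 87.4 for Pdgfrb and 48.9 ± 35.9 for Pdgfra (n = 4), although Pdgfrl and Pdgfrb overlapped within 1 SD. In mural cells Pdgfrb had the highest mean, at 143 ± 84.6, but overlapped Pdgfa (68.2 ± 18.2), and Pdgfb (16.7 ± 13.5) was lower than both. In endomysial cells Pdgfrl (98.9 ± 43.3), Pdgfrb (69.7 ± 26.0) and Pdgfra (69.1 ± 26.0) overlapped within 1 SD.

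The 5 endomysial clusters were compared with each other by 1 F test per gene over strain-blocked sums. By edgeR, 3 of the 6 genes tested were called, where 5.41% of 16520 genes were. Pdgfrl had the lowest adjusted p (0.000683), with 15.3 to 77.1 CPM in cluster 1 and 84.2 to 141 in cluster 5, against 197 to 403 in cluster 3 and 280 to 476 in cluster 6. Cluster 8 spanned all of these, from 67.5 CPM in C57BL6 to 804 in Acta2GFP. Pdgfc followed (adjusted p = 0.00172), with the levels given above. Pdgfrb was called (adjusted p = 0.00674), with 150 to 264 CPM in cluster 1 and 225 to 789 CPM in cluster 8, but the call was lost without the block, without the pool and without PdgfrbGFP. Pdgfra was not called (adjusted p = 0.0951) and was called with the plate as the unit. Pdgfa (0.500) and Pdgfd (0.361) had adjusted p-values far from the threshold.

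The muscle of origin is a label that was not made from the counts. In the pool and in PdgfrbGFP, the slow soleus and the largely fast gastrocnemius of the calf had been kept apart, and their endomysial cells were compared. With 1 residual degree of freedom, 0 of the 7 genes were called, as were 0 of the 16337 genes tested (0.0%) by edgeR, with 807 at an unadjusted p under 0.05 and 111 called by DESeq2. Pdgfrl was higher in soleus in both strains, at 306 against 137 CPM in the pool and 445 against 261 CPM in PdgfrbGFP (0.87, p = 0.00948, adjusted p = 0.967 by edgeR's quasi-likelihood test). Each muscle of the pool had its own plate, and the within-strain difference was 1.05, while both muscles of PdgfrbGFP shared a plate, and the difference was 0.70. Pdgfra was lower in soleus of the pool (465 against 694 CPM) and slightly higher in soleus of PdgfrbGFP (795 against 732), and Pdgfrb (306 against 357, and 766 against 648) went the same ways.

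Other genes of the pathway were read from lists of 77 genes. Between mural cells and fibroblasts, 12 of the 71 genes tested were called (16.9%, near the 15.4% of all genes), 3 higher and 9 lower, and their median log2 fold change was -0.93 against -0.46 over all genes. Of 6 ligand-processing proteases tested, 3 were lower in mural cells and 0 higher. They were Pcsk6 (-6.59) and Pcsk5 (-6.45), proprotein convertases, and Plau (-5.31), urokinase, which can activate PDGF-D. In mural cells Pcsk6 stood at 0 to 7.61 CPM, Pcsk5 at 0.472 to 3.69 and Plau at 1.39 to 8.69. Pcsk6 and Pcsk5 thus passed the filter on low counts through the fibroblast sums, and their calls support nothing. Of 5 co-receptors and binding proteins, Cspg4 (2.33), the proteoglycan NG2, was higher, and Lrp1 (-3.06) and Sparc (-1.26) were lower. Cspg4 also drives the reporter of 1 strain, and its call was lost without the block.

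Of 30 receptor adaptors and effectors, 28 were not called, and the others were the adaptor Nck2 (2.96) and the GTPase Nras (-2.64). Of 15 feedback genes and inhibitors, Dusp6 (-3.50), a phosphatase of ERK, was lower in mural cells and Errfi1 (1.70) higher. Of 7 early response targets, Klf4 (-4.12) and Jun (-1.47) were lower, and of 8 related ligands and receptors none was called. The calls of Jun and Nck2 were each lost in 6 of the alternatives, that of Nras without Acta2GFP, Cspg4dsRED or PdgfrbGFP, and that of Sparc without PdgfrbGFP.

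Between perimysial and endomysial cells, 8 of 71 pathway genes were called (11.3%, against 5.57% of all genes), 1 higher and 7 lower. Sparc (0.84) was the higher one. The others were Plau (-5.06), Lrp1 (-0.50), Errfi1 (-3.59), Myc (-2.03), Klf4 (-1.77), and, among related ligands, Vegfd (-6.27) and Pgf (-6.01). Vegfd, at 0 to 0.584 CPM in perimysial cells, passed the filter on low counts through the endomysial sums, so its call supports nothing. Pgf held 0 to 2.21 CPM in perimysial and 0 to 145 in endomysial cells, and was lower in 4 of 5 strains. Plau held 92.9 to 476 CPM in endomysial and 4.09 to 27.7 CPM in perimysial cells, so the ranges did not meet. The call of Lrp1 was lost in 8 alternatives, that of Myc in 4 and that of Errfi1 in 2. Those of Klf4 and Sparc were lost without the block and that of Pgf without the pool. None of the 30 adaptors and effectors was called. Paramysial cells had 0 of 71 called, where 0.0963% of all genes were, so this 0 says nothing about the pathway. Cluster 10 had 2 of 71 called, where 0.442% of all genes were, and these were Pcsk6 (-7.18) and Dusp6 (3.53). Pcsk6 stood at 0 to 6.02 CPM in cluster 10 and passed the filter through the endomysial sums, so its call supports nothing.

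Dusp6 showed its highest level in cluster 10, at 506 to 1379 CPM against 53.2 to 107 in endomysial and 4.33 to 22.9 in mural cells. This is the cluster with the lowest Pdgfrb, with 6 counts each of Pdgfa and Pdgfb, 7 of Pdgfd and 0 of Pdgfc in 62 cells. Its Pdgfra was not low, and at 260 to 1590 CPM had the highest mean of the classes, overlapping the endomysial range. Both calls of cluster 10 were lost without the block, without PdgfrbGFP and with equal cell numbers, where Dusp6 was 3.68, 3.61 and 4.47 and Pcsk6 -6.68, -7.37 and -7.21. Among the endomysial clusters, 8 of 71 were called (11.3%, against 5.41%), and these were Plat, Pcsk6, Plau, Nrp1, Cspg4, Sparc, Spry4 and Spry1. The call of Sparc was lost in 9 alternatives, that of Spry1 in 5, Spry4 in 3, Plau in 2 and Cspg4 in 1. Soleus and gastrocnemius differed in 0 of 73, where 0.0% of all genes were called.

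The genes most like each PDGF gene were found by Pearson's r of log2 CPM over the 40 sums of a cluster within a strain, as a description. Pdgfra was most like Mir7025 (0.95), a microRNA gene that overlaps it, then Dpep1 (0.93), Abca8a (0.92), Xdh (0.91) and Vcan (0.90). Pdgfrl was most like Mgp (0.87), Tenm3 (0.84), Clec11a (0.84), Cilp (0.83) and Itgbl1 (0.83). For Pdgfa and Pdgfc the leading gene was an overlapping antisense gene, 6330403L08Rik (0.87) and Gm16000 (0.89), followed by Palld (0.79) and Limch1 (0.73). Pdgfd was most like Ptrhd1 (0.79). For Pdgfrb no gene passed 0.63 (mt-Tm), and Pdgfb was under the mean of 10 CPM that the rule asked for. Among the PDGF genes themselves, Pdgfc and Pdgfd had the highest r (0.52) and Pdgfra and Pdgfa the lowest (-0.76).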

How the data were processed

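Cells were read with Smart-seq2, in which duplicates are not told apart by molecular identifiers. Per the authors, alignment was to GRCm38 (mm10) with TopHat2 and Bowtie, doublets were removed with samtools, read here as duplicate reads, which would cap high values, and whole-number read counts per gene were made with featureCounts of Subread. The submitters' processing notes also name bcl2fastq and Bowtie2. The authors also dropped cells with very many genes as possible doublets of cells, and cells with an endothelial or immune signature. No further doublet removal was made. The deposited counts were used as they stand. Of the table's columns, 1 was not used. The 92 spike-in rows (1.31% of counts) were left out of library totals. Symbols, positions and exon lengths came from GENCODE M21, which matched 46005 of the Ensembl identifiers and not 512.

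Counts were summed over the cells of a class or cluster within a strain, with 3 or more cells per sum, and given as CPM, or per cell as counts per 500000. Sums were tested with edgeR 4.0.16 (quasi-likelihood F test, TMM, filterByExpr) in R 4.3.3, with the strain as a block and Benjamini-Hochberg adjustment over all genes tested. The pairing comes from the strain, since both sums of a pair are cells of the same mice or line. Their deviations from the class means correlated at 0.144 to 0.298 between perimysial and endomysial sums, 0.0879 to 0.175 between mural and fibroblast sums, 0.0312 to 0.111 for paramysial and 0.066 to 0.174 for cluster 10 sums. Alternatives were DESeq2 1.42.0, RLE size factors, no filter, no block, the plate as the unit, equal cell numbers, 10 or more cells per sum and leaving out each strain. Shares have exact Clopper-Pearson intervals from scipy 1.17.1. Within-strain differences are of log2 CPM with a prior count of 2.

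The 7 genes and the pathway lists were chosen with earlier results of these data known. From the lists, the 3 called genes of each list with the largest fold change were named, with Plat, Pcsk6, Plau, Nrp1, Cspg4, Sparc, Spry4 and Spry1 named without values. The 5 genes with the highest correlation were listed for PDGF genes with a mean of 10 CPM or more. On simulated counts with 100 genes changed by 3 on the log2 scale, the test recovered 96 for mural, 99 for perimysial and 58 for soleus sums, and 30, 43 and 5 of 100 for a change of 1.5. The labels' extraction text names heart beside a skeletal muscle kit, so genes of position were read on the sums. Hindlimb genes summed to 6.34 to 268 CPM and heart genes to 0 to 61.6 CPM, the highest being in paramysial cells.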

Additional observations from a re-analysis of the deposited data

Results flagged for a closer look

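Of 28 groups of 4 or 5 strains tested with Dixon's criterion at the 95% level, 4 held a strain far from the others, and chance alone flags such a strain in a small share of groups. Pdgfb in mural cells of the pool stood at 168 CPM, against 34.6 to 60.7 in the other 4 strains, and of its 11 cells 3 had a count, with 275 CPM over 5 cells of 1 plate and 0 over 6 cells of the other. Pdgfb in endomysial cells of C57BL6 stood at 1.92 CPM, against 0.0762 to 0.336, and 1 cell held 157 counts. Pdgfb in perimysial cells of the pool stood at 2.26 CPM, against 0 to 0.553, and 1 cell held 30 counts. Pdgfc in paramysial cells of the pool stood at 10.3 CPM, against 0 to 0.495 in the other 3 strains, which had 3 to 6 cells each where the pool had 46.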

How the results depend on the processing

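Depth, the sort and the number of strains limit these values. The classes, but not the muscle labels, were made from the same counts, and receptor levels are conditional on the sort. From 3 to 5 strains enter each fit between classes or clusters, and 2 enter the fit of soleus against gastrocnemius. The calls of PDGF genes held under most alternatives, but counts over all genes moved, and the cause was not tested. With DESeq2 the calls over all genes rose from 2140 to 4336 (mural), from 787 to 2068 (perimysial), from 14 to 796 (paramysial), from 55 to 993 (cluster 10), from 893 to 2560 (among endomysial clusters) and from 0 to 111 (soleus), and 5 rather than 3 PDGF genes were called in perimysial cells. With the plate as the unit they were 1294 (perimysial), 26 (paramysial), 111 (cluster 10) and 1790 (among endomysial clusters). Without a filter cluster 10 had 274, and with equal cell numbers paramysial cells had 0 and cluster 10 had 14, from fewer cells. Leaving out 1 strain at a time gave 1230 to 2257 (mural), 395 to 1416 (perimysial), 10 to 64 (paramysial), 0 to 216 (cluster 10) and 258 to 900 (among endomysial clusters), with the lowest value of mural and cluster 10 without PdgfrbGFP and the highest of perimysial without Cspg4dsRED. It gave 0 to 1 PDGF genes called in paramysial cells, with 1 without Acta2GFP.

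Without the replicate block, 8 genes were called in paramysial cells, 2144 in mural, 661 in perimysial, 43 in cluster 10 and 869 among endomysial clusters, Pdgfrb lost its call among endomysial clusters (adjusted p = 0.264 by edgeR), and no other call of a PDGF gene changed. The median of all genes moved from -0.46 to 0.02 (mural), from -0.86 to -0.18 (paramysial), from -0.41 to -0.06 (cluster 10) and from -0.19 to -0.04 (perimysial).

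Directions that turned were all of uncalled differences. Perimysial Pdgfrb (-0.13) was 0.0498 with the plate as the unit and -0.30 to 0.14 without single strains. Paramysial Pdgfd (-0.20) was 0.59 without the block, 0.86 with equal cell numbers and -1.44 to 0.83 without single strains. Cluster 10 Pdgfra (0.33) was -0.0365 to 0.54 without single strains. For soleus, Pdgfrb was 0.0182 without the block, and in cluster 3 alone Pdgfa was -0.59 and Pdgfc 1.08. Mural Pdgfrb was called with the plate as the unit and without Cspg4dsRED. At 100 or more counts per 500000, both receptors were found in 34.2% of cells, against 80.8% at 1 count. Of the 7 genes, 3 to 6 kept their highest cluster without single strains, with Pdgfra moving between clusters 3, 6 and 10, and Pdgfrb moving from 7 to 4 without C57BL6 and without the pool.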

Other observations

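Ligand and receptor genes were also counted within mural cells. At 1 or more counts, Pdgfb and Pdgfrb were found together in 38 of 187 mural cells, Pdgfb alone in 6, Pdgfrb alone in 106 and neither in 37. Pdgfa and Pdgfb were found together in 36, Pdgfa alone in 86, Pdgfb alone in 8 and neither in 57. At 100 or more counts per 500000 the last pair was found together in 8 cells, Pdgfa alone in 53 and Pdgfb alone in 10.

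Perimysial cells were read in the same way for Pdgfa and Pdgfra. At 20 or more counts per 500000, 161 of 328 cells had Pdgfa alone, 14 had Pdgfra alone and 16 had both. In endomysial cells of soleus, Pdgfrl was detected in 100% of 108 cells of the pool and 87.8% of 90 cells of PdgfrbGFP, against 66.5% of 194 and 75.9% of 112 cells of gastrocnemius. Soleus cells were also deeper. Over all classes their median was 501274 against 292340 counts in the pool and 164434 against 134244 in PdgfrbGFP. The part of depth in these shares was not tested.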
